A study of Mus musculus with 7 samples.

Results

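The cells described here were chosen as Arg1-high monocyte-lineage cells of the infarcted mouse heart. They are 316 barcodes, 2 of them from hearts without infarct, among the 4763 that passed quality limits in 5 single-cell libraries of CD45+ leukocytes. A barcode was a member when it held at least 200 genes, at most 10% mitochondrial UMIs (unique molecular identifiers, the counted transcript molecules), at least 3 UMIs of Arg1, at most 1 of Gpnmb, at most 2 over Lyve1, Folr2, Timd4 and Cbr2, none of Csf3r and fewer than 3 of Cd79a. The Gpnmb limit keeps out a later Arg1-positive macrophage, the 4 resident-macrophage genes keep out resident cells, Csf3r keeps out neutrophils and Cd79a keeps out B cells. The members were thus chosen by measured UMIs of Arg1 and of these limiting genes, and the Arg1 level in them is a description. The whole series holds 22630 barcodes in 7 matrices.

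All libraries came from male C57BL6/J mice, and no genotype or transgene separated the groups. The infarcts were made by permanent ligation of the left anterior descending coronary artery. The CD45+ libraries hold hearts without infarct (steady state, 5 mice) and hearts 1, 3 and 5 days (5 mice each) and 7 days (3 mice) after ligation. Each time point is 1 library of pooled mice on 10x chemistry version 2, so these libraries carry no replicate. Viable leukocytes that an intravenous anti-CD45.2 antibody had not stained were sorted from collagenase digests of the infarct, border zone and adjacent myocardium, with a step that reduced neutrophils. A second experiment sorted CD11b+ heart cells at days 1 (5 mice), 3 (5 mice) and 5 (3 mice), marked each day with a hashtag antibody, and sequenced the days together on chemistry version 3 with 10 surface antibodies. The same rule was applied to that CD11b+ pool and found 302 members, of which 83 were from day 1, 115 from day 3 and 104 from day 5. Neither experiment contains a sham operation, and the age of these mice is not given in the sources used here. No label ties a barcode to a mouse, so spread between mice could not be measured. In the tests between days the 2 experiments stand as replicates that also differ in sort and chemistry.

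Arg1 encodes arginase-1, which splits arginine into ornithine and urea. It draws on the same arginine as inducible nitric oxide synthase (Nos2), and its ornithine feeds polyamine and proline synthesis. In macrophages Arg1 is known to be induced by interleukin-4 signalling, and also by hypoxia and by bacterial products, so that its presence alone does not name one activation state. Saa3 encodes an acute phase protein that myeloid cells make locally during inflammation. Blood monocytes enter the ischaemic heart within the first days of an infarct and then mature into macrophages.

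Stretches upstream of 2 genes that the results below turn on are shown, because both genes fell from day 1 to day 5 among the Arg1-high cells. Each is the 250 bases before the annotated start in RefSeq (GRCm38.p6), on the strand of the gene and written 5′ to 3′. Saa3 lies on the minus strand of chromosome 7, and its stretch is chr7:46715677-46715926. Bnip3, a hypoxia-induced mitochondrial gene, lies on the minus strand of the same chromosome, and its stretch is chr7:138909507-138909756. Capitals in the Saa3 stretch mark matches to TTNCNNAA, a loose form of the C/EBP motif, and capitals in the Bnip3 stretch mark ACGTG, the core of the hypoxia response element, read on both strands.
Saa3: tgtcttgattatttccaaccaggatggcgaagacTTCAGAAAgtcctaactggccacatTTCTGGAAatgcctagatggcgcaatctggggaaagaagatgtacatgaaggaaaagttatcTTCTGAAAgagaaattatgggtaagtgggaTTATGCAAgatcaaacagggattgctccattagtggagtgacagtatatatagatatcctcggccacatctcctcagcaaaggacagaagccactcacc
Bnip3: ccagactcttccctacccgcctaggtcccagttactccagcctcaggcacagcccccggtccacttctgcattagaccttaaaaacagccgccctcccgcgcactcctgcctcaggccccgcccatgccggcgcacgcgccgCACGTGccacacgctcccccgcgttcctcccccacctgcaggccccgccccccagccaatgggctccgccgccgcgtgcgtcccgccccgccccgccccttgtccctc
The Saa3 stretch held 4 matches to TTNCNNAA, all on the strand opposite to the gene. Of 32851 mouse promoters of that length, 36.85% held at least 1 such match and 0.8006% held 4 or more. The Bnip3 stretch held ACGTG once on each strand, in overlapping positions that form the palindrome CACGTG, and 16.57% of promoters held ACGTG at all. A match describes letters in a window and not a bound site. Arg1 was not matched in the promoter table, so its upstream sequence is not shown.

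The Arg1-high cells were nearly missing from the heart without infarct, were most frequent at day 1 and were a small minority by day 7. They were 2 of 645 kept barcodes at steady state (0.310%, exact 95% binomial interval 0.0376 to 1.12%). After infarction they were 105 of 527 at day 1 (19.9%, 16.6 to 23.6%), 131 of 848 at day 3 (15.4%, 13.1 to 18.1%), 58 of 948 at day 5 (6.12%, 4.68 to 7.84%) and 20 of 1795 at day 7 (1.11%, 0.682 to 1.72%). The intervals of days 1 and 3 overlap, and those of days 3, 5 and 7 do not. These intervals cover counting error only, and shares in these libraries depend on the leukocyte sort and on the neutrophil reduction. Day 7 was dominated by B cells, of which 1049 barcodes had at least 3 UMIs of Cd79a. Within a gate of monocytes and macrophages alone (2 or more detected of a set of monocyte and macrophage genes such as Csf1r, Fcgr1 and Cd68, with few lymphoid transcripts), with the 4 day-1 members that fell outside it added to its barcodes, the members took 39.0% of 269 barcodes at day 1, 26.0% of 503 at day 3, 8.98% of 646 at day 5 and 4.98% of 402 at day 7. When kept barcodes of at least 2000 UMIs were thinned to 2000 UMIs, the shares of those barcodes were 0% at steady state and then 19.0%, 16.0%, 6.22% and 0.891%. The limits on Csf3r, Gpnmb and the resident genes were then read on the thinned counts, so barcodes kept out before could become members. The order of the days was the same by all 3 denominators.

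In the CD11b+ pool the members were 83 of 495 barcodes at day 1 (16.8%, 13.6 to 20.4%), 115 of 2159 at day 3 (5.33%, 4.42 to 6.36%) and 104 of 1628 at day 5 (6.39%, 5.25 to 7.69%). Day 1 was again the highest, and the intervals of days 3 and 5 overlap. Of the monocyte and macrophage gate in the pool, with any members outside it added, they were 51.2%, 20.4% and 16.1%. When pool cells of at least 2000 UMIs were thinned to 2000 UMIs the shares were 26.9%, 8.40% and 8.73%, each above its interval. At day 1 the members then numbered 127 of 472, more than the 83 before thinning. The neutrophil limit was the strictest step at day 1. Of 136 CD45+ day-1 barcodes with at least 3 UMIs of Arg1, 27 left because of Csf3r, while at day 5 the Gpnmb limit removed 64 of 152.

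**Figure D1:**
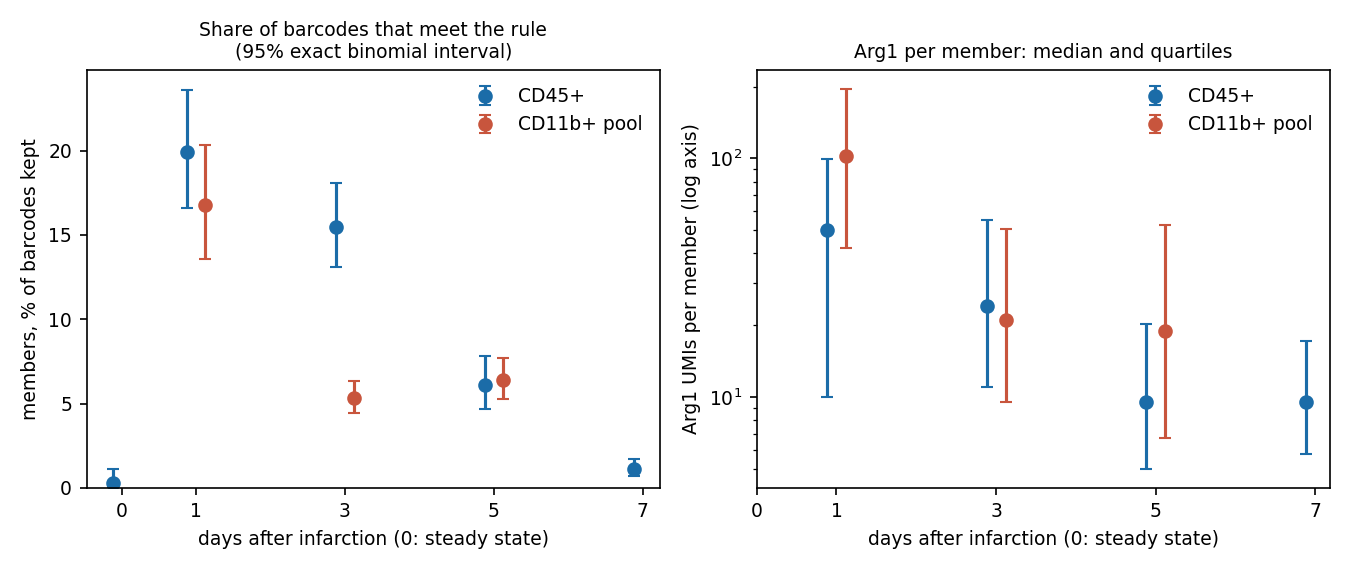
The left panel plots Arg1-high cells as a percentage of kept barcodes with the exact 95% binomial interval, by day after infarction (day 0 is steady state), as unconnected points in 1 colour for the CD45+ libraries and 1 for the pool. The right panel plots the median and quartiles of Arg1 UMIs per member on a log axis, and both the share and the median were highest at day 1 in both experiments, with medians of 50 and 102 UMIs.

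The amount of Arg1 per member was also lower on the later days. In the CD45+ libraries a member held a median of 50 Arg1 UMIs at day 1 (quartiles 10 and 99), 24 at day 3 (11 and 55), 9.5 at day 5 (5 and 20.25) and 9.5 at day 7 (5.75 and 17.25). At least 50 Arg1 UMIs were found in 53 of 105 members at day 1, 39 of 131 at day 3, 3 of 58 at day 5 and 1 of 20 at day 7. In the pool the medians were 102, 21 and 19 UMIs at days 1, 3 and 5. Members near the threshold were few at day 1. Within the gate, 19 cells had 3 to 5 Arg1 UMIs and 52 had 50 or more, while 80 cells just outside had 1 or 2. Those 80 cells held Saa3 at 30308 CPM (the UMIs of a gene per 1000000 UMIs of the summed cells), against 38682 in the cells with 3 to 5 Arg1 UMIs and 40397 in those with 50 or more. At day 3 Saa3 was 3104 CPM in the 105 cells with 1 or 2 Arg1 UMIs, 1624 in the 12 cells with 3 to 5, 8859 in the 80 cells with 6 to 49 and 11340 in the 39 cells with 50 or more. At day 1 Saa3 showed no large step at the Arg1 limit, and at day 3 it was lowest in the cells just past the limit and higher in the 2 bands above them.

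The name of these cells was checked against transcripts that the rule did not use. Members carried monocyte and macrophage genes in nearly every case, since 101 of 105 at day 1 and all at days 3, 5 and 7 fell inside the gate. The gate repeats the Csf3r and Cd79a limits of the rule, so it is no separate check against neutrophils or B cells. Lyz2, the lysozyme of myeloid cells, stood at 2525 CPM at day 1, 17966 at day 3, 19233 at day 5 and 14897 at day 7. Ly6c2, the mark of freshly recruited inflammatory monocytes, was detected in 56 of 105, 58 of 131, 17 of 58 and 4 of 20 members at days 1, 3, 5 and 7, at 344, 182, 142 and 41.8 CPM. That was below its level in the other monocytes and macrophages of the same libraries, which held 591, 555, 228 and 129 CPM. The second proposed marker, Saa3, was present in 105 of 105 members at day 1, 130 of 131 at day 3, 49 of 58 at day 5 and 7 of 20 at day 7, where 1 cell gave 96.3% of its UMIs. In the pool Saa3 was found in 52 of 83, 35 of 115 and 31 of 104 members. The other monocytes and macrophages held Saa3 almost as often early on, in 77 of 77 cells at day 1 and 186 of 187 at day 3, and then in 298 of 399 at day 5 and 79 of 301 at day 7. Detection of Saa3 thus did not separate the members from the other cells at days 1 and 3, and most members of day 7 and of the pool at days 3 and 5 lacked it. The cells are called Arg1-high below, after the gene of the rule.

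Both steady-state barcodes lay outside the monocyte and macrophage gate, with 6 and 4 UMIs of Arg1 and none of Saa3. They carried lymphoid transcripts (Nkg7 at 4 and 1 UMIs, Il7r at 1 and 2), and 1 of them held 4 UMIs of Gata3 and 3 of Il1rl1. They enter no comparison below. The other 4 members outside the gate were all from day 1, and 1 of those held 481 UMIs of S100a8 and 336 of S100a9, the calgranulin genes that dominate neutrophil RNA. The rest held 143, 36 and 38 UMIs of Arg1 and 530, 131 and 58 of Saa3. They held only 2, 0 and 0 UMIs of Lyz2 and none of Csf1r or Cd68, so these transcripts do not place them as monocytes. All 4 stayed among the members.

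Neutrophil transcripts were present in the day-1 CD45+ members. At least 3 UMIs over Retnlg, Cxcr2, Hdc, Mmp9 and G0s2 were held by 76 of 105 members at day 1. At days 3, 5 and 7 the counts were 28 of 131, 5 of 58 and 1 of 20. Among the other monocytes and macrophages they were 61 of 77, 20 of 187, 19 of 399 and 8 of 301. The list of 13 neutrophil genes summed to 13679 CPM there (1 gene at 0), 1406 at day 3 (2 at 0), 479.7 at day 5 (3 at 0) and 445 at day 7 (5 at 0), and to 1078, 324 and 264 CPM in the pool. The other monocytes and macrophages carried more, from 107210 CPM at day 1 to 806 at day 5 in the CD45+ libraries. S100a8 and S100a9 together took over 1% of all UMIs in 22 of 105 members and in 49 of 77 other cells at day 1. The comparisons were repeated with cells of at most 1%, a limit chosen after the data were seen, and the part of these transcripts in the results was not tested otherwise. Transcripts outside their usual cells were also seen for Saa3. The 14 T cells of the day-1 library all held Saa3, at 1772 CPM, against 42139 CPM in the members. Arg1 was found in 6 of these 14 T cells, at 142.5 CPM, and in 3 of the 5 B cells of that library. No T cell there had 3 UMIs of Arg1, with an exact upper limit of 23.2%. How far such stray Arg1 shaped the cells with few Arg1 UMIs, or the comparison cells without any, was not tested. Of the 1049 B-cell barcodes of day 7, 21 had 3 or more Arg1 UMIs. All 21 held at least 10 Lyz2 UMIs and their median of 17517 UMIs compared with 2879 over all B cells, and the Cd79a limit removed them.

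Markers of other cell types were summed in the members of CD45+ days 1, 3, 5 and 7 and of the 3 days of the pool. B-cell genes (6 measured in the CD45+ libraries, 8 in the pool) summed to between 2.21 and 107 CPM with the highest value at CD45+ day 7, T-cell genes (8 and 10) to between 23.7 and 115 CPM, against 21.6 to 120 in the other monocytes and macrophages, and natural killer genes (9) to between 0.468 and 32.5 CPM. Fibroblast genes (8) summed to between 194 and 455 CPM, endothelial genes (8) to between 16.8 and 121 CPM and cardiomyocyte genes (8) to between 3.61 and 51.0 CPM. The 30 other cells of pool day 1 held 1896 CPM of endothelial genes against 24.8 in the members of that day, and the part of this in the comparisons with those cells was not tested. Genes induced by enzymatic dissociation (16) summed to between 5990 and 9004 CPM in members and to between 6014 and 8941 CPM in the other monocytes and macrophages of days 1 to 7, so both classes carried them to a like extent. Members held more UMIs than the comparison cells in most sets. Median totals were 9882 against 5227 UMIs at day 1, 11637 against 9290 at day 3 and 10667 against 9083 at day 7. At day 5 they were slightly lower, with 7602.5 against 7900. In the pool they were 21062, 22927 and 19777 against 13269.5, 16869.5 and 19125. The Arg1 limits of both classes are set in UMIs and not relative to these totals. No barcode string was shared between members of different CD45+ libraries.

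The comparison class was the gate's barcodes without any Arg1 UMI, 77 at day 1, 187 at day 3, 399 at day 5 and 301 at day 7, with 30, 176 and 195 in the pool at days 1, 3 and 5. Unlike the members, this class had no limit on Gpnmb or on the resident-macrophage genes. It could thus hold Gpnmb-high and resident macrophages that the rule kept out of the members. Because Arg1 splits these classes, and because each library is a single pool of mice, the differences are given as descriptions of these libraries with no test. A gene was counted as higher or lower when it reached 50 CPM in the higher class and differed at least 2-fold. By that rule 143 of 2219 genes were higher in members at day 1 (6.44%) and 182 lower (8.2%), 54 of 2560 higher at day 3 (2.11%) and 88 lower (3.44%), 66 of 2586 higher at day 5 (2.55%) and 69 lower (2.67%), and 182 of 2590 higher at day 7 (7.03%) and 124 lower (4.79%). In the pool 5.09% of 3105 genes were higher and 10.5% lower at day 1, 1.25% of 2971 higher and 2.29% lower at day 3, and 2.39% of 2969 higher and 2.56% lower at day 5. The median log2 difference of all genes lay between -0.05 and 0.12 over the 4 CD45+ libraries and the 3 days of the pool.

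The arginine genes were described first, since they surround the enzyme that chose the cells. Of the list of arginine and polyamine genes, 3 of 8 measured were at least 2-fold higher in members at day 1, 1 of 7 at day 3, 1 of 8 at day 5 and 0 of 7 at day 7, and none was lower. Slc7a2, a transporter that brings arginine into macrophages, stood at 103, 10.5, 4.25 and 27.8 CPM in members at days 1, 3, 5 and 7, and at 10.8, 0.556, 0.843 and 0.346 CPM in the other cells. It was higher in members at each of these days and on all 3 days of the pool, which is 1 library, where it was 59.1, 21.7 and 22.9 CPM against 11.2, 3.98 and 5.13. Nos2, the competitor for arginine, was found mostly at day 1. It stood at 187 CPM in 51 of 105 members at day 1, at 4.61 CPM in 3 of 131 at day 3, at 2.12 CPM in 1 of 58 at day 5 and at 0 at day 7, and in the pool at 78.4, 0.328 and 0 CPM. The other day-1 cells held 56.1 CPM of Nos2 in the CD45+ library and 2.80 in the pool. Odc1, ornithine decarboxylase and the first step to polyamines, was lowest at day 1 in these libraries. It stood at 147, 372, 187 and 302 CPM in members and 106, 152, 165 and 241 CPM in the other cells. Its member values exceeded the others in these 4 libraries and on all 3 days of the pool. In the day test below, no gene of this list was called higher at day 3 or day 5 than at day 1. Of markers named beside Arg1 in interleukin-4-treated macrophages, Retnla stood at 3.77 CPM at day 1 and 0 at days 3, 5 and 7. Mrc1 stood at 34.9, 81.0, 93.4 and 97.4 CPM, above the other cells only at day 3 (33.9 CPM) in these 4 libraries. The whole list of 13 alternative-activation genes summed to 1550, 731, 552 and 663 CPM in members and 2094, 445, 457 and 562 CPM in the other cells. In the pool it summed to 1668, 871 and 1051 CPM against 1283, 714 and 599. The sum was higher in members except at CD45+ day 1. There Ccl17 alone gave 1037 UMIs in members and 676 in the other cells, most of each sum. Most of the Ccl17 in those members came from 1 cell, as given below.

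Glycolytic and hypoxia-induced genes were higher in members by the median of each list in all 4 CD45+ libraries and on all 3 days of the pool, and none was lower by 2-fold. For glycolysis 8 of 15 measured genes were at least 2-fold higher at day 1, 2 of 14 at day 3, 3 of 14 at day 5 and 7 of 14 at day 7, with median log2 differences of 1.16, 0.72, 0.90 and 0.98. In the pool the counts were 3 of 15, 1 of 14 and 2 of 14, with medians of 0.82, 0.60 and 0.76. For hypoxia-induced genes the counts were 10 of 12, 4 of 12, 5 of 12 and 2 of 8 in the CD45+ libraries and 3 of 14, 2 of 12 and 4 of 12 in the pool. Tpi1, triosephosphate isomerase, stood at 827, 688, 497 and 510.4 CPM in members of days 1, 3, 5 and 7 and at 250.4, 326, 232 and 214 CPM in the other cells. Pgk1, phosphoglycerate kinase, stood at 356, 143, 80.7 and 60.3 CPM against 123, 68.4, 39.6 and 23.9. Both genes differed by at least 2-fold at these 4 times, and their highest member level was at day 1. Against comparison cells with up to 2 Arg1 UMIs the log2 differences of Pgk1 were 0.94 at day 3 and 0.87 at day 5 and that of Tpi1 was 0.96 at day 5, all under 2-fold, and among cells of 2000 to 15000 UMIs that of Pgk1 was 0.95 at day 3. Vegfa, the vascular growth factor, stood at 103, 100.1, 93.4 and 125 CPM in members against 25.9, 45.0, 37.1 and 55.4 CPM, and in the pool at 506, 284 and 422 CPM against 159.6, 148 and 120.5. Hilpda, which coats lipid droplets under low oxygen, stood at 1626, 779.6, 522 and 380.4 CPM in members. The Gpnmb macrophages of the same libraries, with or without Arg1, held as much Hilpda or more from day 3 on, at 814, 590.1 and 753 CPM. The Arg1-negative Ly6c2 monocytes held less, at 557, 215, 148 and 123 CPM from day 1 to day 7. A high Hilpda level was therefore not particular to the members. Of barcodes with at least 3 Arg1 UMIs, 53 at day 3 and 64 at day 5 held 2 or more of Gpnmb. Whether Gpnmb macrophages without Arg1 also held high Hilpda was not tested.

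**Figure D2:**
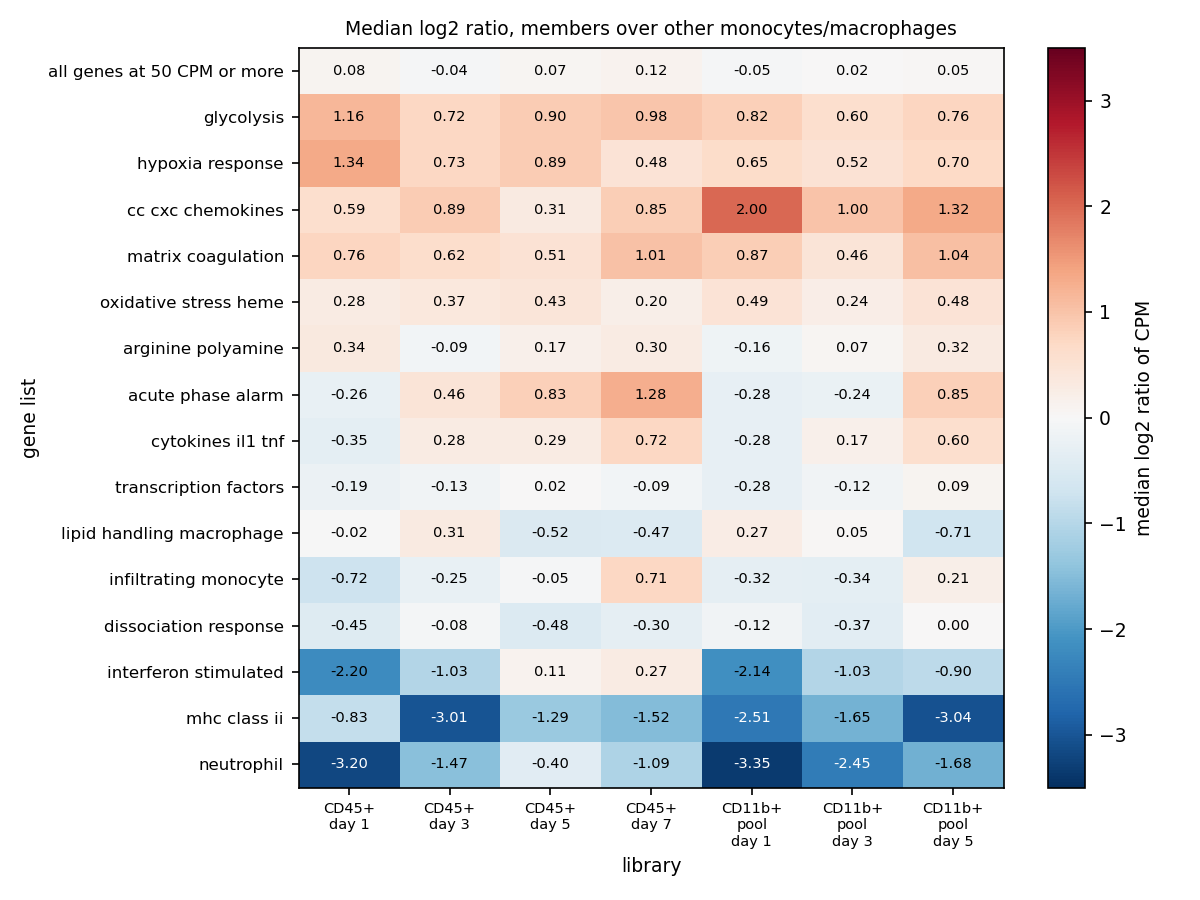
The colour of each cell is the median log2 ratio of members over other monocytes and macrophages for the measured genes of 1 list (rows; all genes at 50 CPM or more for reference) in 1 CD45+ library or 1 day of the pool (columns, CD45+ days 1, 3, 5 and 7 and pool days 1, 3 and 5). Glycolysis and hypoxia were above 0 in all 7 columns, MHC class II was below 0 in all 7, and the interferon list was near or above 0 only in CD45+ days 5 and 7.

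Of the matrix and clotting genes, 9 of 21 were at least 2-fold higher and 3 lower in members at day 1, 6 and 0 of 23 at day 3, 5 and 1 of 20 at day 5, and 9 and 0 of 18 at day 7. In the pool the counts were 10 and 1 of 22, 5 and 0 of 20, and 11 and 3 of 21. Outside Arg1 itself, 10 genes were at least 2-fold higher in members in all 4 CD45+ libraries, namely Ppbp, Saa3, Fn1, Cxcl3, Pdpn, Fam162a, AA467197, Vegfa, Tpi1 and Pgk1. Fn1, fibronectin, stood at 670.1, 1059, 983 and 2449.7 CPM in members at days 1, 3, 5 and 7 and at 188, 247, 168 and 237 CPM in the other cells. The log2 differences of Fn1 were 1.83, 2.10, 2.55 and 3.37, and 3.18, 1.81 and 2.94 in the pool. Pdpn, podoplanin, a surface glycoprotein that binds platelet CLEC-2, stood at 224, 262, 117 and 172 CPM against 23.7, 32.8, 46.1 and 70.0. Fn1 and Pdpn were higher in members in these 4 libraries and on all 3 days of the pool. Thbs1, thrombospondin-1, which activates TGF-beta, stood at 3053, 1536, 1091 and 1679.5 CPM against 1532, 849.7, 511 and 582. Spp1, osteopontin, stood at 2348, 13787, 5353 and 4686 CPM against 1940, 2662, 4696 and 2272 CPM. Its gap was widest at day 3 in these 4 libraries, when Gpnmb macrophages held still more (16681 CPM).

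Acute phase and alarm genes went both ways, with 4 of 15 measured genes at least 2-fold higher and 5 lower at day 1, 2 and 2 of 14 at day 3, 3 and 2 of 11 at day 5, and 6 and 2 of 11 at day 7. Saa3 stood at 42139, 9059.9, 6255 and 1137 CPM in members at days 1, 3, 5 and 7 and at 17520, 2165, 421 and 51.3 CPM in the other cells. The Arg1-negative Ly6c2 monocytes held 22578, 2085, 600.5 and 137 CPM of Saa3, so a high level at day 1 was shared with them. At day 7 the difference rested on the 1 cell named above, and at day 1 it was 0.74 on the log2 scale, under 2-fold, against comparison cells with up to 2 Arg1 UMIs. Slpi stood at 6234, 1355, 420.3 and 209 CPM in members and at 3790, 861, 153 and 191 CPM in the other cells. Lcn2 was lower in members at day 1, with 2737 against 6885 CPM. Infiltrating-monocyte genes were 1 higher and 4 lower of 13 at day 1, 0 and 4 of 12 at day 3, 1 and 1 of 10 at day 5, and 4 and 1 of 11 at day 7. Plac8, a gene of young monocytes, stood at 319.5, 920.5, 548 and 687 CPM in members against 904, 2579, 910.4 and 567 CPM. Lipid-handling macrophage genes were 1 higher and 1 lower of 11 at day 1, 2 and 1 of 15 at day 3, 0 and 4 of 16 at day 5, and 3 and 3 of 16 at day 7. Members thus stood below the other cells in more monocyte genes than above them at days 1 and 3, and below them in 4 of 16 lipid-handling genes at day 5. The rule keeps Gpnmb-high cells out of the members alone, and the part of this in the lipid-handling genes was not tested.

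Ppbp, the precursor of platelet chemokine CXCL7, had the highest log2 difference at day 1 (5.23) and rested on few cells. It was found in 31 of 105, 20 of 131, 9 of 58 and 4 of 20 members at days 1, 3, 5 and 7, at 609, 134, 391 and 88.2 CPM, against 15.1, 8.34, 17.4 and 5.89 CPM in the other cells. The cell with most UMIs gave 23.2%, 57.6%, 71.2% and 84.2% of them. The platelet genes Gp1bb and Tubb1 were at 0 in members of the 4 CD45+ libraries and of all 3 days of the pool, and Gp9 and Treml1 had 1 UMI each at CD45+ day 5 and in the pool at day 5. Pf4, the related platelet factor 4 that cardiac macrophages also express, was broader. It was found in 89 of 105, 116 of 131, 48 of 58 and 18 of 20 members, at 2426, 2479.6, 2846 and 1652 CPM, against 537, 331, 1328 and 1199 CPM.

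Among chemokines 8 of 18 measured genes were at least 2-fold higher and 4 lower in members at day 1, 6 and 1 of 16 at day 3, 7 and 4 of 16 at day 5, and 5 and 5 of 17 at day 7. Ccl2, which recruits CCR2+ monocytes, stood at 8165, 3690.5, 1201 and 2255 CPM in members and at 2333, 1882, 1051 and 1243 CPM in the other cells. Its member level was above the others in all 4 libraries and nearly equal at day 5. Cxcl3, a neutrophil attractant, stood at 17159, 1531, 238 and 283 CPM against 5998, 285, 41.0 and 55.1. Cxcl1, another neutrophil attractant, changed little with the day in members, at 931, 857, 921 and 891 CPM, against 196, 341, 342 and 448. All 3 were higher in members in the pool as well, at 4914, 1822 and 2051 CPM against 132, 965 and 576 for Ccl2, at 4348, 959.7 and 879.8 CPM against 1061, 146 and 126 for Cxcl3 and at 606, 553 and 646 CPM against 36.4, 246 and 259 for Cxcl1.

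Antigen-presentation and interferon genes were lower. Of the MHC class II genes, 1 of 6 measured was at least 2-fold lower in members at day 1, 7 of 7 at day 3, 5 of 6 at day 5 and 6 of 7 at day 7, and in the pool 7 of 7, 6 of 6 and 6 of 6. None was higher. H2-Aa, a class II alpha chain, stood at 679, 413, 1452 and 1735 CPM in members and at 1155, 3804, 3796 and 5116 CPM in the other cells. Dendritic-cell genes (12 in the list) moved with this gap, at 379, 504, 295 and 181 CPM in members and 1196, 1268, 463 and 743 CPM in the other cells at days 1, 3, 5 and 7, and their part in it was not tested. The Ly6c2 monocytes without Arg1 held 30.9 CPM of H2-Aa at day 1, below the members, and 2595 CPM at day 3, above them. Of the interferon-stimulated genes 9 of 10 were lower in members at day 1, 5 of 9 at day 3, 0 of 10 at day 5 and 0 of 7 at day 7, and in the pool 15 of 16 at day 1, 4 of 7 at day 3 and 2 of 5 at day 5. Rsad2, an antiviral radical-SAM enzyme, stood at 26.4, 16.5, 55.2 and 88.2 CPM in members and at 218, 46.1, 57.1 and 39.2 CPM in the others. In the CD45+ libraries no gene of the list was 2-fold lower at days 5 and 7, while in the pool some were on all 3 days.

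The genes at least 2-fold lower in members in all 4 CD45+ libraries were 4, namely S100a9, S100a8, Tmem176b and Il1r2. S100a9 stood at 1559.8, 164, 29.7 and 32.5 CPM against 24670, 958, 147 and 194, and S100a8 at 7743, 684, 78.5 and 167 against 57707, 2924, 293 and 359.6. When only cells with at most 1% of their UMIs from these 2 genes were compared, S100a8 was higher in members by 0.69 at day 1, 0.15 at day 3 and 0.44 at day 7 on the log2 scale, and S100a9 by 0.32 at day 3. S100a9 was lower in members by -0.40 at day 1, -0.19 at day 5 and -0.62 at day 7 there, and S100a8 by -0.13 at day 5. That limit is set on these 2 genes themselves. Tmem176b, a cation channel gene of antigen-presenting cells, stood at 45.2, 50.7, 146 and 158 CPM against 199, 173, 338 and 490.3, and Il1r2, the interleukin-1 decoy receptor, at 529.7, 142, 65.8 and 32.5 CPM against 1392, 398, 165 and 158. In cells with at most 1% S100a8 and S100a9 the log2 difference of Il1r2 at day 1 was -0.05.

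**Figure D3:**
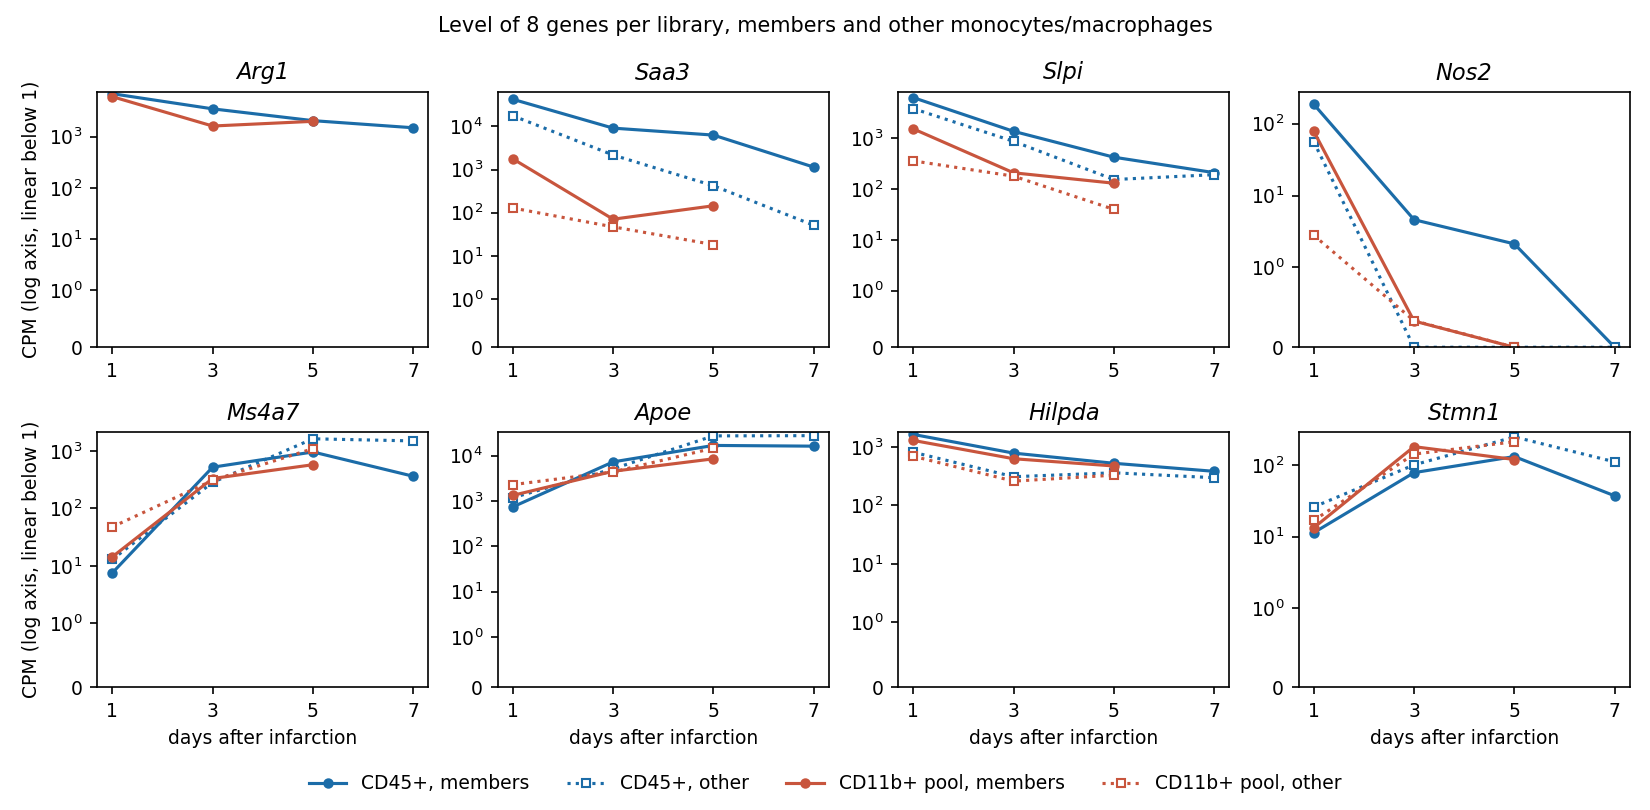
CPM by day for 8 genes on an axis that is linear below 1 and logarithmic above, with Arg1-high cells as filled symbols and solid lines, other monocytes and macrophages as open symbols and dotted lines (Arg1 is drawn for members only), the CD45+ libraries in blue and the CD11b+ pool in red. Saa3 fell from 42139 to 1137 CPM between days 1 and 7 in CD45+ members and stood far lower in the pool, while Ms4a7 and Apoe were lowest at day 1 in both experiments.

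Change with time among the Arg1-high cells was tested on 6 sums of member UMIs, days 1, 3 and 5 in each experiment, with edgeR's quasi-likelihood test, an experiment term and Benjamini-Hochberg adjustment over 8348 genes. By day 3, relative to day 1, 46 genes rose (0.551%) and 83 fell (0.994%). By day 5, again relative to day 1, 95 rose (1.14%) and 161 fell (1.93%). Between days 3 and 5 edgeR called 0 genes (0%), with 184 at an unadjusted p under 0.05, and DESeq2 called 1. The fit had 2 residual degrees of freedom. Without the experiment term no gene passed in any contrast. Leaving out 1 sum at a time, the number of genes called from day 1 to day 3 was 438 without CD45+ day 1, 55 without CD45+ day 3, 503 without CD45+ day 5, 1130 without pool day 1, 0 without pool day 3 and 245 without pool day 5. For day 5 against day 1 it was 630 without CD45+ day 1, 1163 without pool day 1 and 56 without pool day 3, and within 1.5 times of 256 otherwise. Scaling by total counts in place of TMM gave 29 and 149 genes for the 2 contrasts, shifted the median of all genes by 0.24, and moved the share of calls that rose from 35.7% to 62.1% at day 3 and from 37.1% to 51.7% at day 5. The changes below are log2 differences relative to the median gene.

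The arginine genes that fell were Nos2, Ass1 and Arg2, 3 of 12 tested at day 3 and 3 of 12 at day 5. Nos2, whose values are given above, fell by 6.28 ± 0.48 (SE) at day 3 (adjusted p = 0.0011) and by 7.94 ± 0.66 at day 5 (adjusted p = 0.0013). Ass1, argininosuccinate synthase, which remakes arginine from citrulline, stood at 478, 150.1 and 159 CPM at days 1, 3 and 5 in the CD45+ libraries and at 152, 65.3 and 49.6 CPM in the pool. It fell by 1.69 ± 0.23 at day 3 (adjusted p = 0.0189) and by 1.89 ± 0.24 at day 5 (adjusted p = 0.0084). Arg2, the mitochondrial arginase, stood at 303, 161 and 93.4 CPM and at 124, 45.3 and 47.2 CPM, and fell by 1.78 ± 0.27 at day 5 (adjusted p = 0.0131). Arg1 itself, the gene of the rule, stood at 6859.5, 3474 and 2044 CPM and at 6007, 1606 and 1982 CPM, with fitted differences of -1.66 and -1.93 that carry no test here.

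Acute phase and alarm genes fell together. Of 15 tested, 5 fell by day 3 and 9 by day 5, with a median log2 difference of -2.36 at day 5, and none rose. Saa3 stood at 42139, 9059.9 and 6255 CPM at days 1, 3 and 5 in the CD45+ libraries and at 1769, 70.9 and 145 CPM in the pool. It was lower after day 1 in both experiments, and its level was far lower in the pool than in the CD45+ library of the same day. Saa3 fell by 3.58 ± 0.48 at day 3 (adjusted p = 0.0189) and by 3.53 ± 0.46 at day 5 (adjusted p = 0.0085). Slpi, a secreted protease inhibitor, stood at 6234, 1355 and 420.3 CPM and at 1515, 207 and 129 CPM. It fell by 2.76 ± 0.27 at day 3 (adjusted p = 0.0054) and by 3.97 ± 0.29 at day 5 (adjusted p = 7.6e-04). Lcn2, lipocalin-2, which binds bacterial siderophores and is also made by neutrophils, stood at 2737, 75.7 and 8.49 CPM and at 76.2, 9.52 and 5.61 CPM, and fell by 6.32 ± 0.90 at day 5 (adjusted p = 0.0105). S100a8 fell by 4.46 ± 0.91 at day 5 (adjusted p = 0.0400). Neutrophil genes moved the same way in these cells, with 4 of 9 tested lower at day 5. In cells with at most 1% S100a8 and S100a9, the adjusted p of Saa3 was 0.0138, that of Slpi 0.0015, that of Lcn2 0.0201 and that of S100a8 0.0848 (log2 difference -3.36) at day 5, where the limit is set on S100a8 itself.

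Of 15 cytokine genes tested, 2 were lower by day 3 and 5 by day 5. Of 26 matrix and clotting genes, 4 fell by day 3 and 7 by day 5, and 1 rose on each day. Serpinb2, the plasminogen activator inhibitor PAI-2, stood at 298, 65.2 and 12.7 CPM in the CD45+ libraries and at 248, 42.0 and 23.4 CPM in the pool, and fell by 3.94 ± 0.34 at day 5 (adjusted p = 0.0016). Inhba, the activin A subunit, stood at 375, 94.8 and 38.2 CPM and at 799.9, 55.8 and 86.0 CPM, and fell by 3.10 ± 0.44 at day 3 (adjusted p = 0.0208). Il6 stood at 925, 50.0 and 25.5 CPM and at 315, 125 and 67.8 CPM, and fell by 3.98 ± 0.74 at day 5 (adjusted p = 0.0294). All 3 were highest at day 1 in both experiments. Upp1, uridine phosphorylase, stood at 285, 67.8 and 12.7 CPM and at 81.7, 17.1 and 4.67 CPM, and fell by 4.53 ± 0.30 at day 5 (adjusted p = 5.5e-04). Ccl17, a chemokine of dendritic cells and macrophages, was called lower at both days, but 64.9% of its 977 CPM at CD45+ day 1 and 78.7% of its 25.9 CPM at pool day 1 came from 1 cell each.

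Of 18 chemokines tested, 1 fell and 1 rose by day 3, and 6 fell and 1 rose by day 5. Cxcl3, whose CD45+ values are given above, fell by 4.32 ± 0.86 at day 5 (adjusted p = 0.0372). Ccl2 stood in the pool at 4914, 1822 and 2051 CPM and fell by 2.18 ± 0.42 at day 5 (adjusted p = 0.0340). Cxcl16, a scavenger-receptor chemokine, was the one that rose. It stood at 73.5, 179.8 and 369 CPM in the CD45+ libraries and at 71.2, 253 and 390.3 CPM in the pool, and rose by 2.11 ± 0.25 at day 5 (adjusted p = 0.0068). Fn1 and Pf4 had day-5 differences of -0.11 ± 0.25 (adjusted p = 0.869) and 0.37 ± 0.26 (adjusted p = 0.526), so a change of either was not detectable.

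Hypoxia-induced and glycolytic genes were lower at later days within the members as well. Of 16 hypoxia genes tested 7 fell by day 3 and 10 by day 5, and of 18 glycolytic genes 2 fell by day 3 and 8 by day 5, with none higher. Hilpda stood at 1284, 625 and 469.8 CPM in the pool, close to its CD45+ values given above, and fell by 1.30 ± 0.20 at day 3 (adjusted p = 0.0282) and fell by 1.82 ± 0.21 at day 5 (adjusted p = 0.0068). Bnip3, whose upstream stretch is printed above, stood at 259, 139 and 119 CPM in the CD45+ libraries and at 265, 63.3 and 61.2 CPM in the pool. It fell by 1.74 ± 0.27 at day 3 (adjusted p = 0.0272) and by 1.93 ± 0.28 at day 5 (adjusted p = 0.0115). Pgk1 stood at 1410.5, 742 and 577 CPM in the pool and fell by 1.94 ± 0.28 at day 5 (adjusted p = 0.0121). Day 1 was the highest of the 3 days for these 3 genes in both experiments. Vegfa had differences of -0.69 ± 0.24 and -0.45 ± 0.25 and did not pass (adjusted p = 0.231 and 0.408).

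Some macrophage genes rose. Of 17 lipid-handling macrophage genes tested, 3 rose and 1 fell by day 3, and 6 rose and 1 fell by day 5. Among cells with at most 1% S100a8 and S100a9, 3 rises and 1 fall held at day 3, and 3 rises and 1 fall at day 5. Of 10 resident-macrophage genes 1 rose and 2 fell by day 3, and 2 rose and 1 fell by day 5, and of 10 genes of alternative activation 3 fell and none rose on each day. Ms4a7, a membrane protein of mature macrophages, stood at 7.54, 520.2 and 957 CPM at days 1, 3 and 5 in the CD45+ libraries and at 14.4, 331 and 575 CPM in the pool. It was found in 5 of 105 members at day 1 and in 47 of 58 at day 5. Ms4a7 rose by 4.90 ± 0.36 at day 3 (adjusted p = 0.0011) and by 5.70 ± 0.36 at day 5 (adjusted p = 5.5e-04). Apoe, the lipid carrier, stood at 739.9, 7302 and 16849 CPM and at 1332, 4533 and 8531 CPM, and rose by 2.22 ± 0.35 at day 3 (adjusted p = 0.0282) and by 3.26 ± 0.36 at day 5 (adjusted p = 0.0062). Fcrls, an Fc-receptor-like gene, stood at 0.943, 89.5 and 183 CPM and at 3.86, 157 and 182 CPM, and rose by 5.86 ± 0.40 at day 5 (adjusted p = 5.8e-04). Pltp, which transfers phospholipid, stood at 9.43, 52.0 and 261 CPM and at 8.28, 86.3 and 189.8 CPM, and rose by 4.40 ± 0.37 at day 5 (adjusted p = 0.0014). Timp2, a metalloproteinase inhibitor, stood at 3.77, 61.2 and 178 CPM and at 18.8, 90.9 and 209 CPM, and rose by 3.82 ± 0.37 at day 5 (adjusted p = 0.0025). Each of these 5 genes was lowest at day 1 in both experiments. Cx3cr1, the fractalkine receptor, had no UMI in CD45+ day-1 members and stood at 39.5 and 168 CPM at days 3 and 5, and at 9.94, 141 and 122 CPM in the pool. It was called higher at day 5 (adjusted p = 0.0174) and at day 3 (adjusted p = 0.0464), the latter not among cells with at most 1% S100a8 and S100a9 (adjusted p = 0.0640). The day-3 log2 difference of Cx3cr1 was 3.76 in all members and 3.67 in those cells.

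The monocyte genes moved opposite to these. Of the 14 infiltrating-monocyte genes tested 2 fell by day 3 and 7 by day 5, and none rose. Among cells with at most 1% S100a8 and S100a9, 1 of these falls held at day 3 and 3 held at day 5. Ly6c2 stood at 120 CPM at day 1, 63.3 at day 3 and 32.7 at day 5 in the pool, and in the CD45+ libraries at the levels given above. It fell by 1.16 ± 0.21 at day 3 (adjusted p = 0.0408) and by 1.85 ± 0.23 at day 5 (adjusted p = 0.0082). In cells with at most 1% S100a8 and S100a9 the adjusted p of Ly6c2 was 0.265 at day 3 and 0.0522 at day 5. Vcan, versican, stood at 171, 69.1 and 31.8 CPM and at 360.5, 110 and 108 CPM, and fell by 2.18 ± 0.29 at day 5 (adjusted p = 0.0085).

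Cell-cycle genes appeared after day 1. Of 16 tested, 6 rose by day 3 and 7 by day 5, and none fell. Stmn1, stathmin, a microtubule regulator that is high in dividing cells, stood at 11.3, 78.4 and 132 CPM in the CD45+ libraries and at 13.2, 181 and 119.7 CPM in the pool, and rose by 3.14 ± 0.38 at day 3 (adjusted p = 0.0130) and by 3.10 ± 0.39 at day 5 (adjusted p = 0.0084). Mki67, the Ki-67 antigen, was found in 1 of 105, 7 of 131 and 3 of 58 CD45+ members and in 2 of 83, 23 of 115 and 15 of 104 pool members at days 1, 3 and 5. The transcript was thus found in a minority of cells on each of these days, the most in the pool at day 3. At CD45+ day 5, 1 cell gave 48.4% of the Stmn1 UMIs and 71.4% of those of Birc5, the mitotic protein survivin. None of the 7 MHC class II genes, the 16 interferon-stimulated genes or the 26 transcription factors tested passed in either contrast with day 1.

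Whether these day changes differed from those of the other monocytes and macrophages was tested on 12 sums by the interaction of day and class over 9156 genes. Between days 1 and 3 the difference passed for 32 genes (0.349%). For days 1 and 5 the number was 95 (1.04%), and for days 3 and 5 it was 23 (0.251%). DESeq2 called 7, 35 and 1. Leaving out 1 day of 1 experiment moved these counts to between 16 and 112, 2 and 245, and 4 and 88, with the 2 and the 4 both without pool day 5. In the lists, 8 of 15 acute phase genes had a higher day-5 difference in members and none a lower one. Those genes thus fell less in members than in the other cells, or rose against them. Of the neutrophil genes, 6 of 12 were higher and none lower, and the 2 lists share 4 genes, of which 3 were among these calls. In cells with at most 1% S100a8 and S100a9, 0 of the 8 acute phase calls and 0 of the 6 neutrophil calls held. Of 17 lipid-handling macrophage genes, 7 had a lower day-5 difference in members and 1 a higher one, of which 5 and 1 held in those cells. Apoe gives the levels of such a gene, with 739.9, 7302 and 16849 CPM in CD45+ members against 1181, 5132 and 27374 CPM in the others. The others, unlike the members, had no limit on Gpnmb or on the resident-macrophage genes. They could thus gain Gpnmb-high macrophages with the days, which the rule kept out of the members. The part of this in the day differences of the lipid-handling genes was not tested. No glycolytic gene of 19 and no arginine gene of 12 passed in any of the 2 contrasts with day 1. The fall of glycolytic genes in members was therefore not shown to differ from that in the other cells.

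Surface proteins were measured only in the CD11b+ pool, by antibody UMIs per cell, and members are compared with the other cells as a description. CD64, the high-affinity Fc receptor of macrophages, had a median of 35 UMIs at day 1 in members (quartiles 25.5 and 50.5) and 18 in the others (11.25 and 21.75). At day 3 the CD64 medians were 39 and 20, and at day 5 they were 45.5 and 33. The quartiles of the 2 classes did not overlap at day 1, and did at days 3 and 5. MSR1, the class A scavenger receptor, had medians of 32, 27 and 28 UMIs in members at days 1, 3 and 5 and of 19.5, 20 and 21 in the others. The Gpnmb macrophages of the pool, with or without Arg1, had medians of 46.5, 50 and 46 for CD64 and 33, 28 and 25 for MSR1. High CD64 and MSR1 were therefore not particular to the members, and Gpnmb macrophages without Arg1 were not looked at apart. Ly6C protein was highest at day 1, with a median of 169 UMIs in members (quartiles 105 and 274) against 124 in the others, and was 81 against 86.5 at day 3 and 87 against 69 at day 5. The Ly6c2 monocytes without Arg1 held a median of 259 UMIs of Ly6C at day 3, above the members. IA/IE, the MHC class II protein, had medians of 72, 82 and 74.5 UMIs in members and of 58.5, 69.5 and 91 in the others. The median was thus not lower in members at days 1 and 3, when the summed class II transcripts were. Upper quartiles of IA/IE were 83, 117.5 and 93 UMIs in members and 81.75, 142.2 and 205.5 in the others. A median per cell and a sum over cells are unlike measures, so protein and transcript are not directly comparable here. Ly6G, the neutrophil antigen, had like medians in both classes, 106 and 106 at day 1, 105 and 105 at day 3 and 106 and 103 at day 5. Members carried more antibody UMIs in all at day 1, with a median of 725 against 642. As a share of each cell's total, CD64 was 5.33% against 2.3% at day 1.

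**Figure D4:**
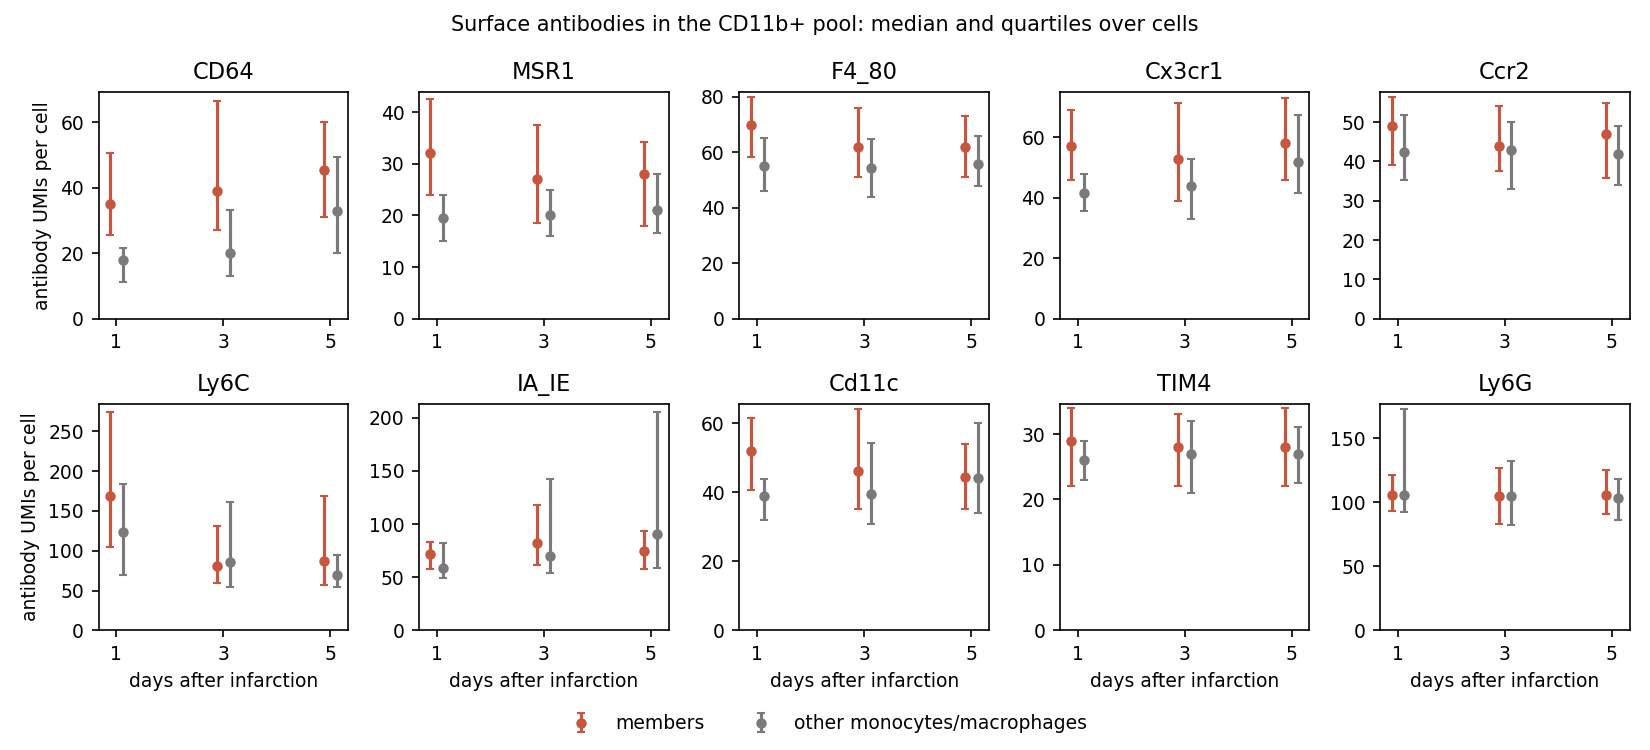
Median and quartiles of antibody UMIs per cell for 10 surface proteins in the CD11b+ pool, for Arg1-high cells and other monocytes and macrophages at days 1, 3 and 5. CD64 and MSR1 medians were higher in the Arg1-high cells than in these other cells on all 3 days, whereas Ly6G differed by at most 3 UMIs.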

How the data were processed

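The deposited matrices hold raw UMI counts per gene and barcode, per the labels for the CD45+ libraries and per the file headers for the CD11b+ pool, whose counts came from Cell Ranger 3.0.2. The aligner version of the CD45+ libraries is not given in the sources used here, and the submitters' processing notes name the builds mm10 and GRCm38. Each time point of the CD45+ experiment held pooled mice in 1 library, with 3737297 to 11587754 UMIs over 552 to 1807 barcodes, and the pool held 107694968 UMIs over 5862 barcodes. Days of the pool were read from 3 hashtag antibodies by a Gaussian mixture of 2 components per hashtag (scikit-learn 1.9.0), which left out 311 barcodes with several hashtags and 242 with none. No doublet caller was run. The members and the 25 gene lists were chosen with earlier results of these data known.

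For the tests, member UMIs were summed per day and experiment over the 27514 genes shared by both annotations. Levels are CPM over all genes of each experiment's own annotation, except in the flagged results, where they are CPM over the shared genes. Log2 differences between classes used a prior of 0.5 UMI. Days were compared with edgeR 4.0.16 in R 4.3.3 (filterByExpr, TMM, quasi-likelihood test, term for the experiment), with Benjamini-Hochberg adjustment over all genes and a threshold of 0.05. An interaction of day and class was fitted on 12 sums. DESeq2 1.42.0, total-count scaling, other Arg1 limits, no filter, no experiment term and leaving out each sum were alternatives. Sums below 20 members entered no test. On simulated counts 85.5% of 200 genes changed by a log2 of 2 were recovered within members (day 3 against day 1, 8180 genes) and 36.0% in the interaction (8930 genes). Named genes were the 10 with the highest and the 10 with the lowest log2 difference among those past the threshold, at 50 CPM or more on the higher side and with 1 direction in both experiments (for the description, past 2-fold in all 4 CD45+ libraries with 20 members or more), and members of the lists. Genes of mitochondria, ribosomal proteins and haemoglobins, and those named Gm or Rik, were left unnamed. Promoters were taken from RefSeq (GRCm38.p6), and 250 bases of each were searched. Steady state and day 7 enter no test, since each stands in 1 library of 1 experiment. Some genes are not reported here.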

Additional observations from a re-analysis of the deposited data

Results flagged for a closer look

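The day effect differed between the Arg1-high cells and the other monocytes and macrophages, by edgeR's interaction test, for 32 genes between days 1 and 3, 95 between days 1 and 5 and 23 between days 3 and 5. The genes below are at most 3 in each direction of each contrast, with 50 CPM or more in members of both experiments and a call that held in cells with at most 1% S100a8 and S100a9. Each difference is the log2 change in members minus that in the other cells, and levels are CPM in the sums of the fit.

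Ccl2 differed by -2.43 from day 1 to day 3 (edgeR adjusted p = 0.0404). Its members stood at 8204 and 3704 CPM in the CD45+ libraries and at 4923 and 1826 in the pool, and the other cells at 2344 and 1890 CPM and at 131.9 and 967 CPM. The other cells thus moved in opposite directions in the 2 experiments, and DESeq2 did not call it (adjusted p = 0.926). Thbd, thrombomodulin, differed by -2.0, with 219.7 and 56.2 CPM in CD45+ members against 28.2 and 26.8 in the others. Ddit4, a stress-induced inhibitor of mTORC1, differed by -1.88, with 295 and 64.1 CPM against 84.6 and 60.8. Both genes were higher in members at day 1 and closer to the others at day 3, and DESeq2 called neither (adjusted p = 0.0853 for Thbd and 0.0669 for Ddit4).

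Cd81, a tetraspanin, differed by 2.85 (DESeq2 adjusted p = 2.7e-05). It stood at 14.2 and 136.1 CPM in CD45+ members and at 32.1 and 157 in pool members, while the others held 82.4 and 89.8 CPM and 154 and 117 CPM. Mmp9, a gelatinase that neutrophils also carry, differed by 3.39, with 13.3 and 125.6 CPM in CD45+ members and 175.7 and 31.3 CPM in the others, and it was lower in the others of the pool as well (328 and 96.2 CPM). Cd81 rose in members in both experiments and did not move in 1 direction in the other cells.

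From day 1 to day 5 Mmp12, macrophage elastase, differed by -4.74. CD45+ members stood at 33.1 and 53.3 CPM and pool members at 121.1 and 53.9, against 13.01 and 77.9 CPM and 5.61 and 280.4 CPM in the others. Tbxas1, thromboxane synthase, differed by -2.45. It stood at 48.3 and 72.4 CPM in CD45+ members and at 122.2 and 99.3 CPM in pool members, against 10.8 and 78.7 CPM and 16.8 and 78.1 CPM in the others, so the level was higher at day 5 in the others of both experiments. From day 3 to day 5 Mmp12 differed by -2.99, Trf, transferrin, by -1.51, Rgs1, a regulator of G-protein signalling, by -1.36 and Fdps, a cholesterol-synthesis enzyme, by 1.52, none of which DESeq2 called.

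Another experiment of the series pooled blood and heart cells under 7 hashtags that the labels do not tie to a condition. Cells meeting the rule were 2.06% of Hashtag6 (19 of 923, exact 95% interval 1.24 to 3.20%) and 1.53% of Hashtag7 (11 of 718, 0.767 to 2.73%). Hashtags 1 to 5 held 0 members of 1442 to 1848 barcodes each, with exact 95% upper limits of 0.199 to 0.256%. The cells of Hashtag6 held 841 CPM of Saa3 and those of Hashtag7 none, while Fn1 stood at 4626 and 4797 CPM.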

How the results depend on the processing

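The share of members moved beyond its interval with the limits. At day 1 it was 25.6% with 2 or more Arg1 UMIs, 26.4% with 3 per 10000 UMIs, 24.1% with up to 1 Csf3r UMI, 15.7% with at most 1% S100a8 and S100a9 (chosen after seeing the data) and 39.0% of the gate. At day 3 it was 19.8% with 2 or more Arg1 UMIs, 19.0% without the Gpnmb limit, 18.2% with up to 1 Csf3r UMI and 26.0% of the gate. At day 5 it was 4.64% with 5 or more Arg1 UMIs, 10.1% without the Gpnmb limit and 8.98% of the gate, at day 7 4.98% of the gate, and 0% at steady state after thinning. In the pool thinning gave 26.9%, 8.40% and 8.73%.

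Genes past 2-fold numbered 654 in place of 325 at CD45+ day 1 in cells with at most 1% S100a8 and S100a9, and 1058, 588 and 499 in place of 483, 105 and 147 in the pool among cells of 2000 to 15000 UMIs. In the former, S100a8 reversed to 0.69, 0.15 and 0.44 at days 1, 3 and 7 and S100a9 to 0.32 at day 3. The cause was not tested.

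Within members, day 3 against day 1 and day 5 against day 1 gave 29 and 149 genes with total counts, 644 and 786 (and 43 for day 5 against day 3) with no filter, 185 and 302 with DESeq2 (1 for day 5 against day 3), and 74 for day 3 with 5 or more Arg1 UMIs. Without the replicate block, here the experiment, they gave 0 and 0. Leaving out 1 sum gave 0 to 1130, 56 to 1163 and 0 to 97, a lone sum being assumed to vary like the others. For the interaction DESeq2 gave 7, 35 and 1, no filter 147, 246 and 119, 5 or more Arg1 UMIs 77, 147 and 54, and at most 1% S100a8 and S100a9 51 for day 3 against day 1 and 44 for day 5 against day 3. Leaving out 1 day of 1 experiment gave 16 to 112, 2 to 245 and 4 to 88. Of 155 calls (143 of named or listed genes within members and 12 of the differences given above), 89 held with total counts, 127 with 5 or more Arg1 UMIs, 136 with at most 1% S100a8 and S100a9, 42 without pool day 3 and 0 of 143 tested without the replicate block, and none of these 155 changed sign. Of all 150 interaction calls 6 changed sign, each under 1 alternative: Cxcl3 in both contrasts with day 1, S100a9, Fpr1, Ccnd1 and Plet1.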

Other observations

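Within members, the genes that followed Arg1 from cell to cell were ranked as a description, by Spearman's rho of CPM over cells, for 849 genes detected in at least 50% of members and the 6 sets with at least 50 members, CD45+ days 1, 3 and 5 and the 3 days of the pool. Cells of a library share depth and ambient RNA, so no p is given. The rho of Pf4 lay between 0.204 and 0.300 over the 6 sets, that of Ecm1, an extracellular matrix protein, between 0.198 and 0.447, that of Fn1 between 0.183 and 0.638 and that of Thbs1 between 0.177 and 0.461. The glycolytic genes Aldoa and Pgam1 had rho of 0.163 to 0.354 and 0.147 to 0.343. The lowest were Cst3, cystatin C, at -0.452 to -0.258, Cd52 at -0.364 to -0.163 and Coro1a, an actin-binding protein of leukocytes, at -0.371 to -0.150. Most of these correlations are weak.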
